A study of Mus musculus with 11 samples.

Results

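A set of 10 genes of the smooth muscle type contractile apparatus were followed in cultured mesenchymal stem cells (MSCs) of young and old mice. They were chosen by name, with earlier results of these data known, and all 10 were found among the 28222 genes of the deposited count table. They comprise the actins Acta2 and Actg2, the myosin chains Myh11 and Myl9, the thin filament proteins Tpm1, Tpm2, Cald1, Cnn1 and Tagln, and the nuclear ankyrin repeat protein Ankrd1.

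Polyadenylated RNA was sequenced in 11 libraries of MSCs that had been cultured exclusively at 2% O2 in αMEM medium with 10% serum. Young mice were 3 to 5 months old and old mice 18 to 22 months old, no genetic change or drug is given in the labels, and all groups share the low oxygen culture. The labels place the libraries in batch A (4 young, called A young), batch B (2 young and 2 old, B young and B old) and batch C (3 old, C old). Age can therefore be separated from batch only within batch B. The labels do not say whether replicates are separate animals, pools or cultures, so p-values measure only the spread between these libraries, which may be technical. Sex and strain are not given in the labels either.

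In smooth muscle cells, myosin motors pull on filaments of actin that are coated with tropomyosin and held in check by caldesmon and calponin, and phosphorylation of the regulatory light chain starts the pull. Many of these genes are switched on together by serum response factor (SRF), which binds the CArG box and works with myocardin or with the myocardin-related factors MRTF-A and MRTF-B. Fibroblasts and cultured stromal cells also use part of this set when they form stress fibres on a stiff surface, and Ankrd1 is a well known target of YAP and TAZ, which act through TEAD proteins. Each RNA was measured here in bulk, so that fewer cells with a gene and less RNA of it per cell cannot be told apart.

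All 10 genes are protein-coding, and they lie on 6 chromosomes of the mouse assembly GRCm38. Tagln (chr9:45929619-45936058), Cnn1 (chr9:22099216-22109630) and Tpm1 (chr9:67022590-67049406) are on chromosome 9. Acta2 (chr19:34241090-34255590) and Ankrd1 (chr19:36111961-36120099) are on chromosome 19. Actg2 (chr6:83512905-83536265) and Cald1 (chr6:34598500-34775473) are on chromosome 6, while Myl9 (chr2:156775420-156781658), Tpm2 (chr4:43514711-43523765) and Myh11 (chr16:14194535-14291372) are each alone on theirs.

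The DNA before the start sites that RefSeq gives was searched for the sites of the regulators named above. RefSeq windows on GRCm38.p6 of 250 bases upstream of the start were at hand for 7 of the 10 genes, in 8 windows since Cald1 has a pair of starts. The CArG box was searched only as an exact match to CC, 6 letters of A or T, and GG. Boxes with a mismatch to this pattern were not searched for, so a gene without a match may still carry one. The exact box was found in 1 of the 8 windows, that of Myl9, against 1.47% of 32851 windows of the same length over the genome. The 6-base core CATTCC that TEAD proteins bind, in either orientation, was found in 4 of the 8 windows, against 12.6% of all windows. The matches are shown because they mark which of the genes carry these letters close to a start. Each is given 5′ to 3′ on the strand of its gene as a run of 30 bases, with the matched letters in capitals (the TEAD core appears as its reverse complement GGAATG).
Myl9, CArG box, chr2:156775293-156775322, plus strand: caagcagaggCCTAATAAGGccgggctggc
Acta2, TEAD core, chr19:34255502-34255531, minus strand: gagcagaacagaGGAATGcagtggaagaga
Tpm1, TEAD core, chr9:67049252-67049281, minus strand: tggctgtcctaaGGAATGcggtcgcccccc
Cald1, TEAD core, chr6:34598339-34598368, plus strand: gagcatgcctagGGAATGacaggcatctgc
Ankrd1, TEAD core, chr19:36120037-36120066, minus strand: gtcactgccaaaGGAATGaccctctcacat
Ankrd1, TEAD core, chr19:36119950-36119979, minus strand: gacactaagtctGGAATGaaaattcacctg
Between the last base of a match and the RefSeq start lay 151 bases for Myl9, 140 for Acta2, 50 for Tpm1, 147 for Cald1, and 204 and 117 for Ankrd1. GENCODE places some starts farther upstream than RefSeq, so that 217 of the 250 bases of the Acta2 window, 193 of the Tpm1 window and all 250 of the Ankrd1 window are exonic in the gene itself. The matches of these 3 genes lie within the gene bodies given above, whereas those of Myl9 and Cald1 lie before them. Ankrd1 was the only one of the genes searched with more than 1 TEAD core in its window. No match was found in the windows of Cnn1 and Tpm2 or in the second window of Cald1.

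Libraries held 11969336 to 20315934 counts, and all levels are given as CPM (counts relative to the library total) after scaling with edgeR's trimmed mean of M-values (TMM) unless stated otherwise. A count of 3 corresponds to 0.148 to 0.251 unscaled CPM, and all members were far above this level in every library. The paper sorted the MSCs of its oxygen comparison by CD140a and Sca-1, and whether this holds for these libraries is not stated. Pdgfra, which encodes CD140a, was between 109 and 289 CPM and Ly6a, which encodes Sca-1, between 270.3 and 778 CPM. These levels are a description and do not test the labelled cell type. The blood cell gene Ptprc was between 3.47 and 22.2 CPM. The summed level of 12 haematopoietic markers was 628 to 1371 CPM in A young, 356 to 719.99 CPM in B young, 723 to 1047 CPM in B old and 123 to 144 CPM in C old. Summed levels of 8 pericyte markers were 987 to 1120 CPM, 691 to 925 CPM, 568 to 622 CPM and 819.8 to 859 CPM in the same order of groups. The 14 skeletal and cardiac muscle markers found in the table summed to 26.7 to 67.4 CPM over all libraries, with Myh4 at 0 in all libraries of A young, B young and B old, and 8 endothelial markers summed to 4.54 to 12.5 CPM.

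Together the 10 genes took 0.458% to 0.913% of all counts, with a higher share in B old than in B young and in C old than in A young. The share was 0.675%, 0.564%, 0.528% and 0.531% in A young, 0.458% and 0.5001% in B young, 0.712% and 0.639% in B old, and 0.913%, 0.834% and 0.865% in C old. Within batch B the lower old library stood above the higher young library, with group means of 0.675% ± 0.0512 (SD, n = 2) in B old and 0.479% ± 0.0296 (n = 2) in B young. A young replicate 1 had the highest share of all young libraries and overlapped with B old. These shares are of unscaled totals. Their 95% Wilson intervals, such as 0.635% to 0.643% for B old replicate 2, cover counting error only and are far narrower than the spread between libraries.

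Per kilobase of the longest annotated transcript, Acta2 was by far the most abundant member in every group. Its level was 1726 ± 246 CPM per kb in A young, 1082 ± 32.2 in B young, 1478 ± 183 in B old and 1525 ± 76.5 in C old (mean ± SD). Myl9, Tpm1, Cald1 and Tpm2 followed with means of 152 to 448 CPM per kb, and Actg2 and Cnn1 with 68.6 to 205 CPM per kb. Neighbours in this order often overlapped: Cald1, Tpm1 and Tpm2 were not separated from each other in A young, and in B young Cald1 overlapped both Tpm1 and Myl9, which were separated from each other. Myh11, Tagln and Ankrd1 were the lowest in all groups, between 1.31 and 11.3 CPM per kb. The choice of transcript matters for Cald1, whose mean in A young was 224 CPM per kb with its longest transcript and 921 with the median length of its transcripts.

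**Figure D1:**
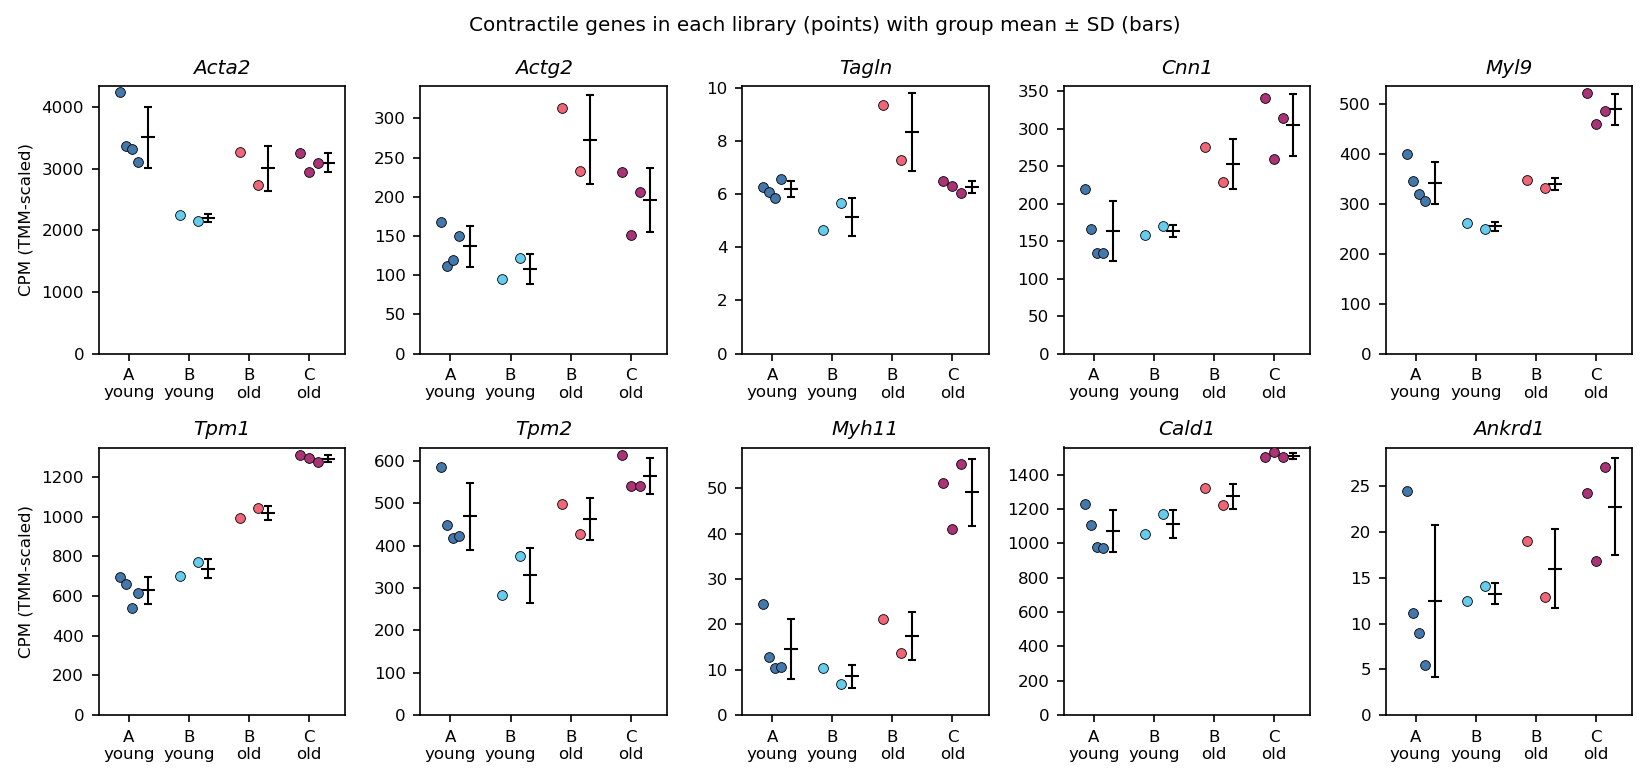
CPM of the 10 contractile genes, 1 panel per gene, with each library as a point and the group mean ± SD as a bar to its right (n = 4, 2, 2 and 3). Actg2 is highest in B old, Myh11, Tpm1, Cald1 and Myl9 are highest in C old, and A young replicate 1 (the leftmost point) is the highest library of its group for 9 of the 10 genes.

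Batch B allows the level of these genes to be compared between ages within a batch, with 2 libraries per age. The B young libraries differed more from each other (chi-square per gene of 48.7) than libraries within any other group did (3.08 to 22.2). The age fit takes its spread from all 11 libraries, so its p-values may understate the spread within batch B. Of the 10 genes, Actg2 was the only one that rose in B old against B young at an adjusted p under 0.05 (edgeR quasi-likelihood test with Benjamini-Hochberg adjustment over 16132 genes). Without adjustment, 8 of the 10 had a p under 0.05, against 16.1% of all genes. None was called lower. Over all genes, 2.23% were called in this comparison, with 0.694% higher and 1.54% lower in old cells. All 10 genes nevertheless had a positive log2 fold change, with a median of 0.48 against 0.0044 over all genes tested. In 9 of the 10 both old libraries stood above both young libraries, all but Ankrd1, while over all genes the groups did not overlap in 39.7%, with old higher in 19.2%. Scaling by RLE size factors or by total counts gave 9 of 10 as well. The shares over all genes under these scalings are not given here. The set was chosen with earlier results of these data known, so its counts and median are a description and no independent support.

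Actg2, which encodes the gamma actin of visceral smooth muscle, was at 94.7 and 122 CPM in B young and at 313 and 233 CPM in B old. The groups did not overlap, and Actg2 rose by 1.33 ± 0.22 on the log2 scale (estimate ± SE; edgeR adjusted p = 0.00469). A young libraries had 168, 112, 119 and 149 CPM and C old libraries 231, 151 and 206 CPM. All C old libraries were thus below both B old libraries, and C old replicate 2 lay within the range of A young. The call in batch B was lost when either of 2 libraries was left out: without B old replicate 1 the log2 fold change was 1.11 with an adjusted p of 0.0613, and without B young replicate 1 it was 1.16 with an adjusted p of 0.0517.

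Acta2, which encodes the alpha actin of vascular smooth muscle and of myofibroblasts, was at 2248 and 2155 CPM in B young and at 3271 and 2745 CPM in B old. The old libraries stood above the young libraries, but the log2 fold change of 0.45 ± 0.15 did not pass the test (edgeR adjusted p = 0.140). A young libraries had 4243, 3376, 3320.1 and 3113 CPM and C old libraries 3259, 2948 and 3104 CPM. The highest Acta2 level of all was therefore in a young library, and B young stood below all other libraries.

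The relation between the actins differed between groups. Actg2 counts were 3.95%, 3.31%, 3.58% and 4.80% of Acta2 counts in A young and 4.21% and 5.65% in B young, against 9.56% and 8.48% in B old and 7.09%, 5.12% and 6.65% in C old. Both B old libraries exceeded all others, and C old replicate 2 lay below B young replicate 2. This ratio is free of the scaling between libraries but is not corrected for length, was chosen after the values were seen, and was not tested.

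Myh11, the heavy chain of smooth muscle myosin and the most specific smooth muscle gene of the set, was at 10.4 and 6.74 CPM in B young and at 21.2 and 13.6 CPM in B old. The groups did not overlap, with a difference of 1.01 ± 0.35 on the log2 scale (edgeR adjusted p = 0.155). A young libraries had 24.4, 12.8, 10.3 and 10.6 CPM and C old libraries 51.1, 40.99 and 55.3 CPM. All 3 C old libraries thus stood above all other libraries, while A young replicate 1 lay above both B old libraries. These levels are low next to the non-muscle heavy chain Myh9, which is nearly ubiquitous: Myh11 counts were 0.469% to 1.01% of Myh9 counts in A young, 0.711% and 0.686% in B young, 1.83% and 1.28% in B old and 2.27% to 2.79% in C old. Old libraries were above young libraries in all of these ratios, but the ratio also moves with Myh9. Myh9 was itself called lower in B young than in A young and higher in C old than in B old (edgeR adjusted p under 0.05). This ratio was also chosen after the values were seen and was not tested. The transcripts of Myh11 share 26 of 6500 stretches of 50 bases with Myh9 or Myh10.

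Myl9, the regulatory light chain of smooth muscle and non-muscle myosin, was at 262 and 249 CPM in B young and at 349 and 331 CPM in B old. The difference of 0.41 ± 0.13 on the log2 scale did not pass the test (edgeR adjusted p = 0.116). A young libraries had 400.3, 345, 319 and 305 CPM and C old libraries 523, 460.1 and 487 CPM. C old was above all other libraries and B young below them.

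Among the thin filament proteins, Tpm1 and Cnn1 had every old library above every young library. Batch A holds only young and batch C only old libraries, so this order cannot be assigned to age. Tpm1, a tropomyosin with muscle and non-muscle isoforms, was at 696, 659.7, 541 and 616 CPM in A young, 704 and 771 CPM in B young, 994 and 1045 CPM in B old and 1310.2, 1295 and 1275 CPM in C old. Cnn1, the smooth muscle calponin that binds actin and damps myosin activity, was at 219, 166, 134 and 134 CPM in A young, 158 and 169.6 CPM in B young, 276 and 229 CPM in B old and 341, 259.9 and 314 CPM in C old. For these 2 genes each of the 5 old libraries stood above each of the 6 young libraries, which was the case for 2.73% of the 16132 genes tested. Within batch B the log2 fold changes were 0.47 ± 0.13 for Tpm1 and 0.63 ± 0.20 for Cnn1, and neither passed the test (edgeR adjusted p = 0.0703 and 0.120).

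Tpm2, the second muscle type tropomyosin, was at 587, 449, 418 and 424 CPM in A young, 284 and 376 CPM in B young, 498 and 428 CPM in B old and 615, 541 and 540.1 CPM in C old. B young was below all other libraries, whereas the other groups overlapped except B old and C old. The difference within batch B was 0.49 ± 0.17 on the log2 scale (edgeR adjusted p = 0.156). The tropomyosins did not keep a constant relation: counts of Tpm1 were 1.19 to 1.47 times those of Tpm2 in A young but 2.47 and 2.05 times in B young, 2.00 and 2.44 times in B old and 2.13 to 2.39 times in C old. This ratio separated batch A from the other batches, and old and young libraries of batch B overlapped in it. It was also chosen after the values were seen and was not tested.

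Cald1, which encodes caldesmon, varied least. It was at 970.4 to 1229 CPM in A young, 1056 and 1172 CPM in B young, 1323 and 1221 CPM in B old and 1499 to 1528 CPM in C old. Its difference within batch B was 0.19 ± 0.13 on the log2 scale (edgeR adjusted p = 0.504), although the groups did not overlap. Its highest and lowest library differed by 0.66 on the log2 scale, and 14.8% of all genes tested had a smaller range. For Myh11 this range was 3.01, and 94.0% of genes had a smaller one.

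Ankrd1 overlapped between B old and B young and between C old and A young. It was at 24.5, 11.2, 8.92 and 5.52 CPM in A young, 12.5 and 14.1 CPM in B young, 19.1 and 12.96 CPM in B old and 24.3, 16.9 and 27.1 CPM in C old. Its difference within batch B was 0.27 ± 0.44 on the log2 scale (edgeR adjusted p = 0.802), and without B old replicate 1 it was -0.023. A young libraries alone spanned nearly the range of the whole data set.

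Tagln, which encodes the actin-binding protein SM22 alpha and is usually abundant in cells with this programme, was near the bottom. It was at 6.26, 6.08, 5.86 and 6.58 CPM in A young, 4.64 and 5.65 CPM in B young, 9.36 and 7.28 CPM in B old and 6.48, 6.29 and 6.02 CPM in C old. B old was the highest group, with a log2 fold change against B young of 0.70 ± 0.19 (edgeR adjusted p = 0.0754). These levels are uncertain. Of the 1988 exonic bases of Tagln, 1349 (67.9%) are also exonic in genes annotated on the opposite strand, 1241 of them in Gm48529 and 108 in Pcsk7, and the use of strand in counting is not given in the sources used here. No other member shares exonic bases with another gene. Gm48529 itself was at 0.313 to 0.845 CPM in batches A and B and at 2.18 to 2.90 CPM in C old.

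**Figure D2:**
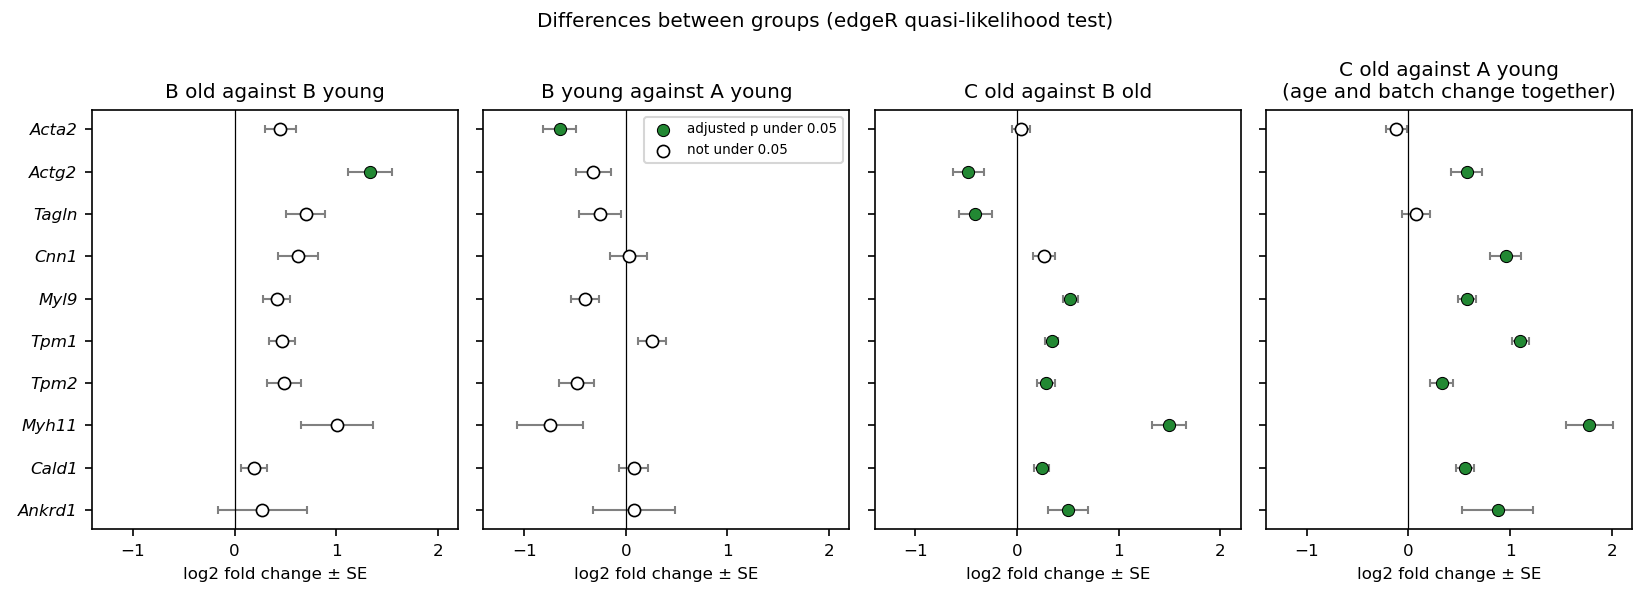
Log2 fold change with its SE for each gene in the 4 comparisons of groups, with filled green points where the edgeR adjusted p is under 0.05. In batch B all 10 points lie above 0 and only Actg2 is filled; in C old against A young 8 are filled and all of these are higher in C old.

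Markers of other cell types were compared in the same way within batch B. Of 10 MSC sorting and stromal markers, 8 had a negative log2 fold change in B old against B young, with a median of -0.43, and 2 were called lower in edgeR and 5 in DESeq2. Pdgfra, which encodes the sorting marker CD140a, was at 236 and 194.5 CPM in B young and at 109 and 128 CPM in B old (-0.86 ± 0.15, edgeR adjusted p = 0.00590), and Nt5e, which encodes CD73, was at 16.1 to 30.5 CPM and at 8.42 to 9.82 CPM (-1.34 ± 0.25, adjusted p = 0.00932). Both calls were lost without B old replicate 1. All 12 haematopoietic markers had a positive log2 fold change in B old against B young, with a median of 0.59. Of these, 0 passed the edgeR test, 5 had an unadjusted p under 0.05, and 0 were called with limma and 2 with DESeq2 (Cd53 and Lyz2). Of 7 pericyte markers tested, 1 (Ndufa4l2) was called lower and 0 higher, and their median was -0.18. All 5 skeletal and cardiac muscle markers that could be tested were positive with a median of 0.56, with 0 called in edgeR, limma or DESeq2 and 1 at an unadjusted p under 0.05 in edgeR. The part of these cells in the values of the contractile genes was not tested. In C old the summed haematopoietic level was below that of every other library. Of the 10 contractile genes, 5 stood above B old without overlap in C old, against 38.9% of all genes. Against A young it was also 5, next to 29.5% of all genes. Whether these levels are linked to the haematopoietic level was not tested.

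Batch was compared at constant age in 2 ways. In young cells, Acta2 fell in B young against A young by 0.65 ± 0.16 on the log2 scale (edgeR adjusted p = 0.0158) and was the only member called, against 18.1% of 14840 genes tested, with 9.39% higher and 8.71% lower in B young. This call was lost without B young replicate 2 (log2 fold change -0.62, adjusted p = 0.0879). Values for Tpm2 (-0.48 ± 0.17, adjusted p = 0.0667), Myl9 (-0.40 ± 0.14, adjusted p = 0.0599) and Myh11 (-0.75 ± 0.32, adjusted p = 0.122) were negative and did not pass the edgeR test, while Cnn1 (0.03 ± 0.18) and Cald1 (0.08 ± 0.14) were near 0. The groups did not overlap for 5 members, 4 of them lower in B young and 1 higher, against 40.9% of all genes and 20.1% with B young higher.

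In old cells, 8 of the 10 members were called in C old against B old. This share has to be read against 64.7% of all 15651 genes, with 32.1% higher and 32.6% lower. Myh11 rose by 1.49 ± 0.17 (edgeR adjusted p = 8.47e-06), Myl9 by 0.52 ± 0.07 (6.4e-05), Tpm1 by 0.34 ± 0.07 (0.000985), Cald1 by 0.24 ± 0.07 (0.0102), Tpm2 by 0.28 ± 0.09 (0.0126) and Ankrd1 by 0.50 ± 0.19 (0.0390). Actg2 fell by 0.48 ± 0.15 (0.0165) and Tagln by 0.41 ± 0.16 (0.0410); B old was the highest group for both. Acta2 differed by 0.04 ± 0.09 (0.697) and Cnn1 by 0.27 ± 0.11 (0.0508). The median over the members was 0.27, against 0.02 over all genes, and the groups did not overlap for 7 members, 5 of them higher in C old, against 76.3% of genes and 38.9% with C old higher.

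The calls of Actg2 and Tagln in this comparison depended on the test, on scaling and on a few libraries. With DESeq2 neither was called (Actg2 -0.49, adjusted p = 0.121, and Tagln -0.42, adjusted p = 0.110). With total counts in place of TMM the median of all genes moved to 0.22, Actg2 was at -0.28 (adjusted p = 0.125) and Tagln at -0.22 (adjusted p = 0.249) in edgeR, and no member fell. Actg2 was also lost without B old replicate 1 (-0.25, adjusted p = 0.112) and without C old replicate 2 (-0.31, adjusted p = 0.0501). Tagln was lost without B old replicate 1 and without any of the 3 C old libraries (edgeR adjusted p of 0.0820 to 0.333), and Ankrd1 without B old replicate 2 (adjusted p = 0.233), C old replicate 1 (0.124) or C old replicate 3 (0.162). Without B old replicate 2 the call of Tpm2 was lost as well (0.17, adjusted p = 0.0773), and Acta2 turned to -0.085.

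C old and A young share no library with batch B, but age and batch change together between them and cannot be told apart. All 8 members that were called in this pair were higher in C old, against 63.8% of 15021 genes called and 32% called higher. Myh11 was higher by 1.78 ± 0.23 (edgeR adjusted p = 2.61e-05), Tpm1 by 1.10 ± 0.09 (3.67e-07), Cnn1 by 0.96 ± 0.15 (0.000123), Ankrd1 by 0.88 ± 0.35 (0.0415), Myl9 by 0.58 ± 0.09 (0.000130), Actg2 by 0.57 ± 0.15 (0.00503), Cald1 by 0.55 ± 0.09 (0.000124) and Tpm2 by 0.33 ± 0.11 (0.0199). Acta2 (-0.12 ± 0.10, adjusted p = 0.329) and Tagln (0.07 ± 0.14, adjusted p = 0.647) did not pass. Ankrd1 was lost without any of A young replicates 2 to 4, C old replicate 1 or C old replicate 3 (edgeR adjusted p of 0.0888 to 0.143), and Tpm2 without A young replicate 3, A young replicate 4 or C old replicate 1 (0.0561 to 0.114). The groups did not overlap for 5 members, all higher in C old, against 64.5% of genes and 29.5% with C old higher. With total counts the latter count was 8 members. The matching share over all genes is not given here. Of all calls in this pair, 72.5% were higher with total counts, against 50.1% with TMM.

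Set side by side, the pairs of old and young groups without shared libraries differed in which member led. Actg2 had the largest log2 difference of the members in batch B (1.33) and a middle one in C old against A young (0.57), whereas Tpm1 had 0.47 and 1.10 and Acta2 0.45 and -0.12. Whether the pairs differ was not tested. Cald1, Cnn1, Myh11, Myl9 and Tpm1 had old above young without overlap in both pairs, which was the case for 6.25% of the 14330 genes tested in both. Actg2 was the only member that was called higher in old cells in batch B alone and in C old against A young, which was the case for 23 genes (0.161%). These counts over both pairs were added after the values were seen.

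**Figure D3:**
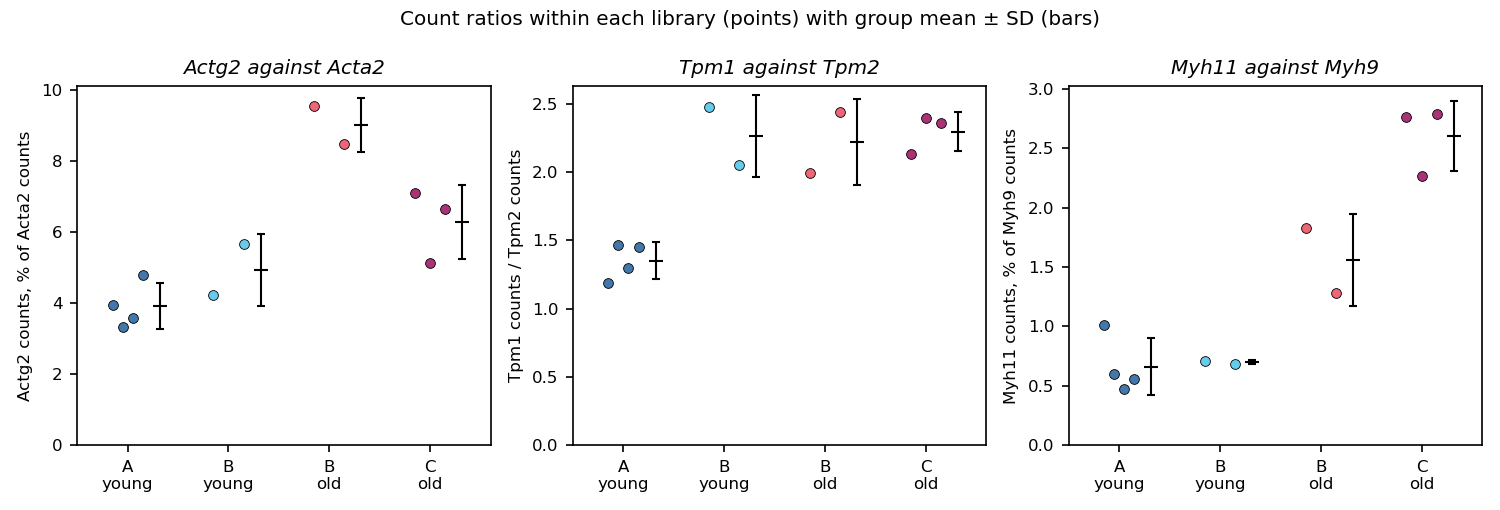
Ratios of counts within each library for Actg2 to Acta2, Tpm1 to Tpm2 and Myh11 to Myh9, with points for libraries and bars for the group mean ± SD. The actin ratio is highest in B old, the tropomyosin ratio is lowest in A young, and the myosin ratio is higher in all old than in all young libraries.

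The profiles of the members over the 11 libraries were compared as a description, by the root mean square difference of log2 CPM after centring each gene on its mean. Libraries of a group share batch and age, so these distances reflect the same few group differences. The closest pairs were Myl9 and Tpm2 (0.155), Cnn1 and Tpm1 (0.177), Myl9 and Cald1 (0.205) and Acta2 and Tpm2 (0.208). The farthest were Tagln and Myh11 (0.955) and Acta2 and Myh11 (0.897). The median distance of Acta2 to 16122 other genes was 0.470. Only 0.980% of them were closer to Acta2 than Tpm2 was, while 52.3% were closer than Actg2 and 90.3% closer than Myh11. The genes outside the set with the profile most like that of Acta2 were Mcm7, a subunit of the replicative helicase (0.125), Cux1, a homeobox transcription factor (0.131), Mical2, an enzyme that oxidises actin (0.142), Gtse1, a protein of dividing cells (0.143), and Polh, a translesion DNA polymerase (0.148). None of these 5 genes was called in B old against B young (edgeR adjusted p of 0.131 to 0.979). Acta2 was not called there either, and they were picked to match its profile, so this outcome was largely set by the choice. In B young against A young, Mcm7, Cux1 and Mical2 were called lower, as Acta2 was (edgeR adjusted p of 0.0153 to 0.0434). Gtse1 and Polh were not called in that comparison. The A young and B young libraries were part of the matching too, so a likeness to Acta2 there was also largely set by the choice.

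The regulators of the programme were not called with age in batch B. Of 10 genes for SRF, its cofactors, YAP, TAZ and the TEAD proteins, 0 passed the edgeR test at an adjusted p under 0.05, with a median log2 fold change of -0.09; 2 had an unadjusted p under 0.05, and limma and DESeq2 called 0 as well. Srf was at 0.01 ± 0.12 and Yap1 at 0.00091 ± 0.10. Mrtfa, which encodes MRTF-A and had the smallest p of the list, was at 102 and 72.4 CPM in B young and at 69.5 and 58.6 CPM in B old, with a log2 fold change of -0.45 ± 0.14 (edgeR adjusted p = 0.110). Mrtfa was at 106 to 114 CPM in A young and 66.3 to 70.1 CPM in C old. Myocd, which encodes myocardin itself, had only 1 to 17 counts per library. In C old against A young, where age and batch change together, 3 of the 10 regulators were called higher (Myocd, Srf and Tead3). Another 4 were called lower (Mrtfa, Tead1, Wwtr1 and Yap1). Srf was at 44.8 to 57.9 CPM in A young and 78.2 to 82.8 CPM in C old. Over all genes of this pair 63.8% were called, with 32% higher and 31.9% lower, close to the share of the regulators. With total counts in place of TMM, 5 regulators were called higher and 1, Mrtfa, lower, while 72.5% of the calls over all genes were higher.

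Targets of SRF outside the set moved in part. Of 10 tested, 2 were called higher in B old and 0 lower, and the median was 0.21. Csrp2, a LIM protein of smooth muscle, was at 39.03 and 70.3 CPM in B young and at 122 and 102 CPM in B old (1.04 ± 0.24, edgeR adjusted p = 0.0357), but at 20.2 to 36.4 CPM in A young and 23.6 to 28.4 CPM in C old. Fhl1, a LIM protein of muscle, was at 59.0 and 75.6 CPM in B young and at 133 and 101 CPM in B old (0.80 ± 0.19, edgeR adjusted p = 0.0409), with 42.1 to 60.8 CPM in A young and 108 to 153 CPM in C old. Fhl1 was thus high in both groups of old cells, whereas Csrp2 was highest in B old and C old lay within the range of A young. Both calls were close to the threshold. The call of Fhl1 was lost without B old replicate 1 (edgeR adjusted p = 0.362), B young replicate 1 (0.2498), A young replicates 3 or 4 or C old replicates 1 or 3 (0.0583 to 0.0632). That of Csrp2 was lost without B old replicate 1 (0.271), B young replicate 1 (0.234), B old replicate 2 or any C old library (0.0568 to 0.0646). With libraries thinned to the smallest total, both were lost as well (0.0506 and 0.0530). Of 5 YAP targets tested, 0 were called by edgeR and by limma and 1 by DESeq2 (Amotl2, lower), 4 had an unadjusted p under 0.05 in edgeR, and the median was -0.37. Ajuba had the smallest p (-0.41 ± 0.13, adjusted p = 0.114).

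Among 12 other smooth muscle markers that could be tested of 14, 2 were called higher and 0 lower by edgeR and by limma, and the median was 0.29. DESeq2 called the same 2 higher and 1, Synm, lower. In C old against A young, 7 of 11 tested were called higher and 2 lower (Jph2 and Synm). Over all genes of that pair, 32% were called higher and 31.9% lower. Des, the muscle intermediate filament desmin, was at 1.04 and 0.613 CPM in B young and at 4.11 and 3.47 CPM in B old, the largest difference among the lists (2.15 ± 0.33, edgeR adjusted p = 0.00283). It was at 0.894 to 1.40 CPM in A young and 3.27 to 3.70 CPM in C old, so that old and young libraries did not overlap in either pair, at levels of few counts. Synpo2, an actin-bundling protein of the Z-disc, was at 13.7 and 10.8 CPM in B young and at 25.5 and 23.3 CPM in B old (0.99 ± 0.21, edgeR adjusted p = 0.0217), while A young (13.2 to 21.2 CPM) and C old (16.6 to 21.3 CPM) overlapped. The call of Synpo2 was lost without either B old library or without B young replicate 1 (edgeR adjusted p of 0.0501 to 0.154), whereas those of Des and of Mylk were kept whichever library was left out.

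Of 10 genes that control contraction, 1 was called, in the higher direction. Mylk, the myosin light chain kinase that phosphorylates Myl9, was at 78.7 and 84.9 CPM in B young and at 156 and 159 CPM in B old (0.95 ± 0.16, edgeR adjusted p = 0.00513). It was at 100.01 to 153 CPM in A young and 180.3 to 191 CPM in C old, above young without overlap in both pairs. The non-muscle paralogs of the set showed no call in batch B, with 0 of 12 past the threshold in edgeR, limma and DESeq2, 1 at an unadjusted p under 0.05 in edgeR, a median of 0.08 and the smallest p for Tpm3 (0.25 ± 0.11, adjusted p = 0.279). In C old against A young, 7 of these 12 paralogs were called lower and 3 higher, against 8 higher and 0 lower of the 10 contractile genes. Over all genes of this pair, 32% were called higher and 31.9% lower. With total counts in place of TMM, 3 paralogs were called lower and 4 higher, so that the balance of the paralogs depended on scaling, and 9 contractile genes were called higher.

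In the TGF-beta pathway, a known inducer of Acta2, 1 of 10 genes was called in batch B by edgeR and by limma, and the median was 0.03. DESeq2, and edgeR with total counts, called 2, Smad3 lower and Tgfbr1 higher. At constant age, Smad3 was also called lower in B young against A young and higher in C old against B old (edgeR adjusted p under 0.05). Smad3, a signal transducer of this pathway, was at 93.2 and 71.2 CPM in B young and at 50.6 and 56.7 CPM in B old and fell by 0.62 ± 0.13 (edgeR adjusted p = 0.0170). It was at 125 to 139 CPM in A young and 64.6 to 70.9 CPM in C old, below young without overlap in both pairs. Its call was lost without either B old library or without B young replicate 1 (edgeR adjusted p of 0.0519 to 0.232).

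**Figure D4:**
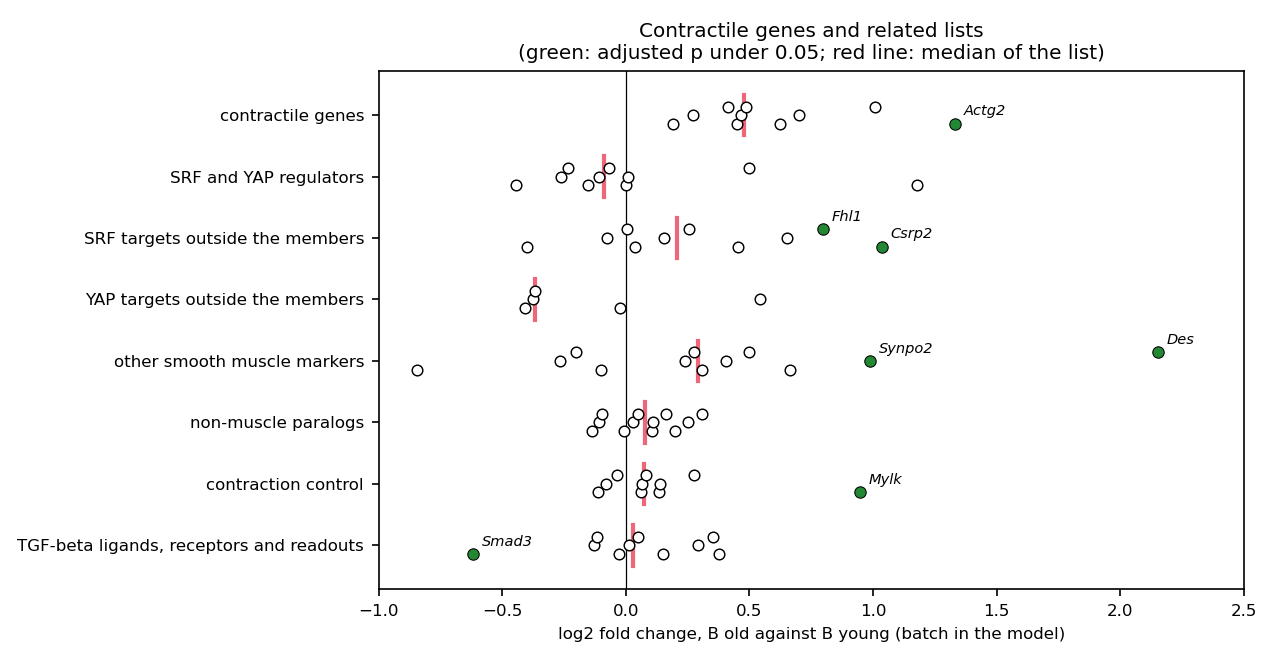
Log2 fold change of B old against B young for each tested gene of the contractile set and of 7 related lists, with genes at an edgeR adjusted p under 0.05 in green and named and the median of each list as a red line. All 10 contractile genes lie to the right of 0, with a median of 0.48, and the medians of the other lists lie between -0.37 and 0.29.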

How the data were processed

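Age and batch labels defined the groups. The authors deposited a table of raw counts per gene, without normalisation. The labels name the build GRCm38 (mm10). The methods of the study describe an oxygen comparison in sorted MSCs of hind limb bones, and their use for these libraries is not stated, nor are strand and molecular identifiers. All 28222 genes were fitted with edgeR 4.0.16 in R 4.3.3 (TMM, quasi-likelihood test, minimum count of 5 in filterByExpr, Benjamini-Hochberg adjustment, threshold 0.05). Batch was a covariate in the age fit, which held all 11 libraries, so that its age term compares B old with B young; the other comparisons held only their groups. SEs were derived from fold change and F statistic. The scripts were tested on simulated data. The alternatives were limma 3.58.1, DESeq2 1.42.0, RLE and total-count scaling, a minimum count of 10, no filter, thinning to the smallest total, a replicate block, a correction for length and GC content (loess, span 0.3), no batch term, batch B alone, a joint fit of all libraries and leaving out each library. Genes were annotated with GENCODE M21. Exon sharing and motifs were examined after values were seen.

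Members and gene lists were chosen with earlier results of these data known. Named genes were all members, every gene called in the age comparison in each related gene list (cell type markers aside) or else its gene of smallest p, and the 5 genes with profiles closest to Acta2; any other gene was named after its values were seen. No deposited column was left out.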

Additional observations from a re-analysis of the deposited data

How the results depend on the processing

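Of 700 fold changes of single members under alternatives, 608 kept direction and side of the threshold, 42 passed it newly, 37 no longer passed and 13 changed sign; the causes were not tested. In batch B the members called with age numbered 5 with DESeq2, 2 with total-count scaling, 6 without a filter, 2 with the length and GC correction and 5 without a batch term, and 0 to 4 when a library was left out (0 without B old replicate 1 or B young replicate 1, 4 without A young replicate 1 or B young replicate 2). Over all genes the calls numbered 640 with DESeq2, 1094 without a filter, 2641 without a batch term, 123 in batch B alone (fewer libraries) and 84 to 2007 when a library was left out. In B young against A young, members called numbered 2 with limma, 3 with DESeq2, 4 without a filter, 3 in the fit of all libraries and 0 to 1 when a library was left out. Calls over all genes there were 4171 in the fit of all libraries and 511 to 4031 when a library was left out. In C old against B old, 4 members and 8902 of 16132 genes were called in the fit of all libraries. Leaving out a C old library gave 6 to 7 members and 9047 to 9288 genes there. In C old against A young, leaving out a library gave 6 to 8 members and 8550 to 9764 genes. With a library left out, the group mean share of counts of the members ranged over 0.541 to 0.590% (A young), 0.639 to 0.712% (B old), 0.458 to 0.5001% (B young) and 0.850 to 0.889% (C old).

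Replicate numbers of the groups gave no clear pairing of the libraries, as deviations of same-numbered libraries correlated at -0.11 to 0.044. The own number was the best match for 2 of 2 libraries in B old against B young and 0 of 2 in B young against A young. It was so for 2 of 2 in C old against B old and 2 of 3 in C old against A young. Deviations within a group of 2 libraries mirror each other, so this check cannot decide whether libraries were paired. With a replicate block, 1 member (Actg2) was called with age, 1 in B young against A young, where Acta2 was lost (-0.76, edgeR adjusted p = 0.132) and Myh11 was gained (-1.06, 0.0127), and 8 in each of the other comparisons; calls over all genes were 262, 708, 9016 and 9088.

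Signs changed for Ankrd1 with age without B old replicate 1 (-0.023, and up to 0.52 without another library) and for Acta2 in C old against B old without B old replicate 2 (-0.085, and up to 0.17 without another library) and in C old against A young with total counts (0.18). In B young against A young they changed with the block for Cnn1 (-0.20), Cald1 (-0.042) and Ankrd1 (-0.32), with the length and GC correction for Cald1 (-0.040), without A young replicate 3 for Cnn1 (-0.061) and Ankrd1 (-0.05), without A young replicate 4 for Cnn1 (-0.05) and Ankrd1 (-0.16), and without B young replicate 2 for Cnn1 (-0.03) and Ankrd1 (-0.01); leaving out a library gave -0.061 to 0.20 for Cnn1 and -0.16 to 0.66 for Ankrd1. With total counts the higher share of calls was 44.8% in place of 31.1% with age, 66.4% in place of 51.9% in B young against A young, 62.9% in place of 49.6% in C old against B old and 72.5% in place of 50.1% in C old against A young. With the length and GC correction Actg2 (-0.10, limma adjusted p = 0.587) and Tagln (-0.11, 0.564) were no longer called in C old against B old. Among named genes of the related lists, Tpm3 changed sign without a batch term (-0.17), and with the block or in batch B alone the calls of Fhl1, Csrp2 and Smad3 with age were lost (edgeR adjusted p of 0.0526 to 0.177). With total counts, 8 members did not overlap between C old and A young, without the share over all genes beside them. This count was added after seeing the data. Groups of 2 libraries limit the precision in batch B.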
